A study of Mus musculus with 9 samples.

Results

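The enzymes that turn glucose into lactate, the glucose and lactate transporters on either side of them, and known targets of the hypoxia-inducible factor HIF-1 were followed in mouse macrophages loaded with spinal cord debris and treated with inhibitors of the growth regulator mTOR. The genes were chosen by symbol. There were 34 of them among the 53342 genes of the count table, 20 in glucose uptake, glycolysis and lactate export and 14 in the HIF-1 pathway outside glycolysis. They took up 35 rows because Aldoa was listed under 2 identifiers, and all 35 rows passed the filter on low counts that left 12511 genes for testing.

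RNA was sequenced from bone-marrow-derived macrophages of wild-type (WT) C57BL/6J mice, male and female, 8 to 12 weeks old, with marrow of different animals kept apart. Cells received Torin-2 (an ATP-competitive inhibitor of mTOR in both of its complexes, mTORC1 and mTORC2), rapamycin (which inhibits mTORC1) or vehicle for 2 h and were then fed spinal cord homogenate at 1% w/v (10 mg/mL) for 24 h with the compound still present. Each group had 3 libraries, and every group received the homogenate, which was made from cords of male and female C57BL/6 mice up to 20 weeks old, pooled 20 to 30 mice at a time. The sources used here give neither the doses of the compounds nor the oxygen level of the cultures. No group without homogenate was analysed here, so every value below is a difference between treatments of homogenate-fed cells.

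Glycolysis converts glucose to pyruvate in the cytosol, and lactate dehydrogenase and the monocarboxylate transporters then dispose of the pyruvate as lactate. HIF-1 is a transcription factor whose alpha subunit is marked for destruction by oxygen-dependent prolyl hydroxylases. When the subunit is spared it pairs with Arnt, binds short DNA sites known as hypoxia response elements and raises most genes of glycolysis. In macrophages this programme is known to run during inflammatory activation in normal oxygen, and mTORC1 is known to raise both the synthesis of the HIF-1 alpha protein and glycolytic transcription. The counts measure RNA only, so the protein and the flux through the pathway were not measured.

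The core of a hypoxia response element is ACGTG or GCGTG. The promoter windows of 5 of the genes are shown because these genes span the responses described below, with large falls in P4ha2, Slc16a3 and Ldha and rises in Slc2a1 and Kdm3a. Each window runs 5′ to 3′ on the gene's own strand from 250 bases before to 50 bases after an annotated start in RefSeq, build GRCm38.p6. Capitals mark ACGTG or GCGTG on either strand, so that CACGT and CACGC are matches read on the opposite strand. The windows are P4ha2 at chr11:54100674-54100973 (plus strand), Slc16a3 at chr11:120948817-120949116 (plus), Ldha at chr7:46845554-46845853 (plus), Slc2a1 at chr4:119108495-119108794 (plus) and Kdm3a at chr6:71632868-71633167 (minus). Of genes with several windows, the one with the most matches is shown, and Ldha has 1 further window, with 2 matches, and Kdm3a has 2 further windows, with 0 matches.
P4ha2: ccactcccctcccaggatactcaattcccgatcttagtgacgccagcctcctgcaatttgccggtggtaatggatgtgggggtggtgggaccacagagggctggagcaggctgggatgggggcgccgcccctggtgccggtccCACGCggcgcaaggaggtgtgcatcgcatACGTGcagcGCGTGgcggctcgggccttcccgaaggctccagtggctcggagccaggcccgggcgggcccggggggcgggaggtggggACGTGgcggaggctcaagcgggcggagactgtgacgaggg
Slc16a3: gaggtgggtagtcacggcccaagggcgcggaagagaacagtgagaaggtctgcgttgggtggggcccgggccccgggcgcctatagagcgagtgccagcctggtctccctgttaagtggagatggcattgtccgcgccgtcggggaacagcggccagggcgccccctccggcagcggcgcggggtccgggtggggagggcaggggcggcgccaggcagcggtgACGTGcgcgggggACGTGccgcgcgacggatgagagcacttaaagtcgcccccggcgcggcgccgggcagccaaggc
Ldha: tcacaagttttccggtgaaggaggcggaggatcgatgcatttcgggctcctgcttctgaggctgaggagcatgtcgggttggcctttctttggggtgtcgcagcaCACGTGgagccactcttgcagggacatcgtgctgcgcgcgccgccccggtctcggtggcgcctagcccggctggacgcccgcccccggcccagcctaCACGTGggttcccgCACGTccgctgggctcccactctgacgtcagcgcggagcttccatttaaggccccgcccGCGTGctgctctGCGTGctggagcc
Slc2a1: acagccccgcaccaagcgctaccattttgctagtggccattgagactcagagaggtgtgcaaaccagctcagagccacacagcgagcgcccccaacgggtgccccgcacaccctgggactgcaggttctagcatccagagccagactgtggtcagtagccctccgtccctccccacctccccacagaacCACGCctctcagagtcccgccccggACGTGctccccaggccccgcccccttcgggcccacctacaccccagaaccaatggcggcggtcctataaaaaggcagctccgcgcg
Kdm3a: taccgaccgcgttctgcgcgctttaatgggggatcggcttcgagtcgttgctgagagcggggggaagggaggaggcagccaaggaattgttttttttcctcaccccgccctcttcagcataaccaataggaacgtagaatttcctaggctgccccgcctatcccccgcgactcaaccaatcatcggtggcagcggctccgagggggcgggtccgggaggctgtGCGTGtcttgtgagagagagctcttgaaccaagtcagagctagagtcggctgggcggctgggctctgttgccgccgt

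The P4ha2 window held ACGTG 78 bases upstream and 11 bases downstream of the start, and GCGTG at 107 and 69 bases upstream. In Slc16a3, ACGTG stood 27 and 14 bases upstream. The Ldha window held 7 matches, of which 4 come from 2 copies of the palindrome CACGTG, counted on both strands. Slc2a1 held 1 of each motif, and Kdm3a held GCGTG alone. Of the 34 genes, 33 had a window in the RefSeq table, and Ndrg1 had none. At least 1 window of the gene held ACGTG in 24 of these 33 genes (72.7%), against 29.8% of the 9283 tested genes with a window and 21.8% of all 27025 genes of the table. With GCGTG allowed as well, 31 of 33 genes (93.9%) held a match, and Gpi1 and Tpi1 did not, against 68% of tested genes and 46.7% of all. A gene with more windows has more occasions for a match. Counted by window, ACGTG stood in 28 of 50 windows of these genes (56%) and in 25.7% of windows of tested genes. With GCGTG allowed these shares were 78% and 61.9%. Both motifs contain CpG, and the median window held 21 CpG for these genes, 20 for tested genes and 7 for all. A match of so short a motif is a description of the letters and not a binding site. The genes were listed as glycolytic genes or known HIF-1 targets, so their higher share is not independent of that choice.

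Libraries held 16116666 to 24044329 counts, and the 34 genes ranged from 2 counts (Adm) to 53614 counts (Aldoa) in a library. Levels are in CPM, that is counts relative to library size after scaling with TMM factors of 0.955 to 1.05. All 10 macrophage markers stood above 1 CPM in every library, and 3 of 5 T and B cell markers were at 0 in all of them. Macrophage markers summed to 15342 to 17123, 19957 to 21599 and 12054 to 16692 CPM in Torin-2, rapamycin and vehicle libraries. Their levels were not stable. Cd14 was lowest in vehicle libraries, at 37.8 to 51.6 CPM against 262 to 303 CPM with Torin-2. Fcgr1 and Aif1 were highest in vehicle libraries. Myelin markers summed to 368 to 425, 694 to 849 and 482 to 616 CPM in Torin-2, rapamycin and vehicle libraries. Most of this sum was Mbp, at 298 to 668 CPM over all libraries. Cnp had its highest values in vehicle libraries, and Mag its highest value in a Torin-2 library. Of 10 myelin markers 3, and of 8 neuron markers 5, stayed under 1 CPM throughout. Without a homogenate-free group, whether RNA of these cord cell types came from the cord was not tested. Summed astrocyte markers stood at 20.6 to 22.6, 32.4 to 50.7 and 27.4 to 36.7 CPM in Torin-2, rapamycin and vehicle libraries, and neuron markers at 6.08 to 7.71, 10.8 to 14.3 and 8.47 to 12.9 CPM. Summed fibroblast markers, mostly collagens, stood at 2.38 to 7.17 CPM, 12.3 to 78.2 CPM and 8.95 to 37.8 CPM in the same order, lowest in replicate 3 of each group. Endothelial markers, at 28.1 to 30.3 CPM in Torin-2, 6.30 to 9.33 CPM in rapamycin and 3.68 to 5.39 CPM in vehicle libraries, were mainly Vwf. Cdh5 of the same list had its highest values in vehicle libraries, at 0.899 to 1.16 CPM against 0.0535 to 0.493 CPM with Torin-2. Cldn5 and Tek stayed under 1 CPM throughout. The part of these cells in the results was not tested. In such bulk samples fewer cells of a type and less RNA per cell cannot be told apart.

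Torin-2 lowered most of the pathway. Against vehicle, 23 of the 34 genes fell and 5 rose at an adjusted p under 0.05 (edgeR's quasi-likelihood test, Benjamini-Hochberg over all tested genes), while 32.9% of tested genes fell and 32.5% rose, 65.4% in either direction. A fall of at least 2-fold was called in 13 genes, against 10.6% of tested genes, and a rise of that size in 2 genes, Ndrg1 and Kdm3a, against 10.1%. The median log2 fold change was -0.80 over the 34 genes and -0.01 over all tested genes. Torin-2 and vehicle libraries did not overlap in 29 of the 34 genes, against 70.2% of tested genes.

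Rapamycin lowered a similar number of genes by less. Against vehicle, 21 genes fell and 5 rose, while 26.2% of tested genes fell and 24.6% rose, 50.8% in either direction. A fall of at least 2-fold was called in 4 genes (Ldha, Slc16a1, Pfkfb3 and Egln3), against 5.15% of tested genes, and a rise of that size in 0 genes, against 3.45%. The median log2 fold change was -0.49 over the 34 genes and 0.00 over all tested genes, and 26 genes did not overlap between groups, against 57.5%. When libraries were scaled by their totals alone, the median of all tested genes moved to -0.09 and 37.4% of all calls were rises, against 48.5% with TMM, while 5 of the 34 genes still rose and 22 fell.

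The compounds were also set against each other directly. In Torin-2 libraries relative to rapamycin libraries 20 genes were lower and 5 higher, while 24.1% of tested genes were lower and 24.2% higher, 48.2% in either direction. The median log2 difference was -0.31 over the 34 genes and -0.00 over all tested genes, and 28 genes did not overlap, against 57.2%. A difference of at least 2-fold was called in P4ha1 and P4ha2, lower in Torin-2 libraries (4.41% of tested genes were lower by that size), and in Ndrg1, higher in them (5.17%). With totals alone, 59.7% of all calls were higher, against 50.1% with TMM, and 5 of the 34 genes were higher and 19 lower. The 5 higher genes (Hk3, Aldoa, Mxi1, Ndrg1 and Kdm3a) became 2 to 6 when 1 library at a time was left out, 3 without replicate 1 of rapamycin or replicate 1 or 2 of Torin-2, and 2 without rapamycin replicate 2 or Torin-2 replicate 3.

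**Figure D1:**
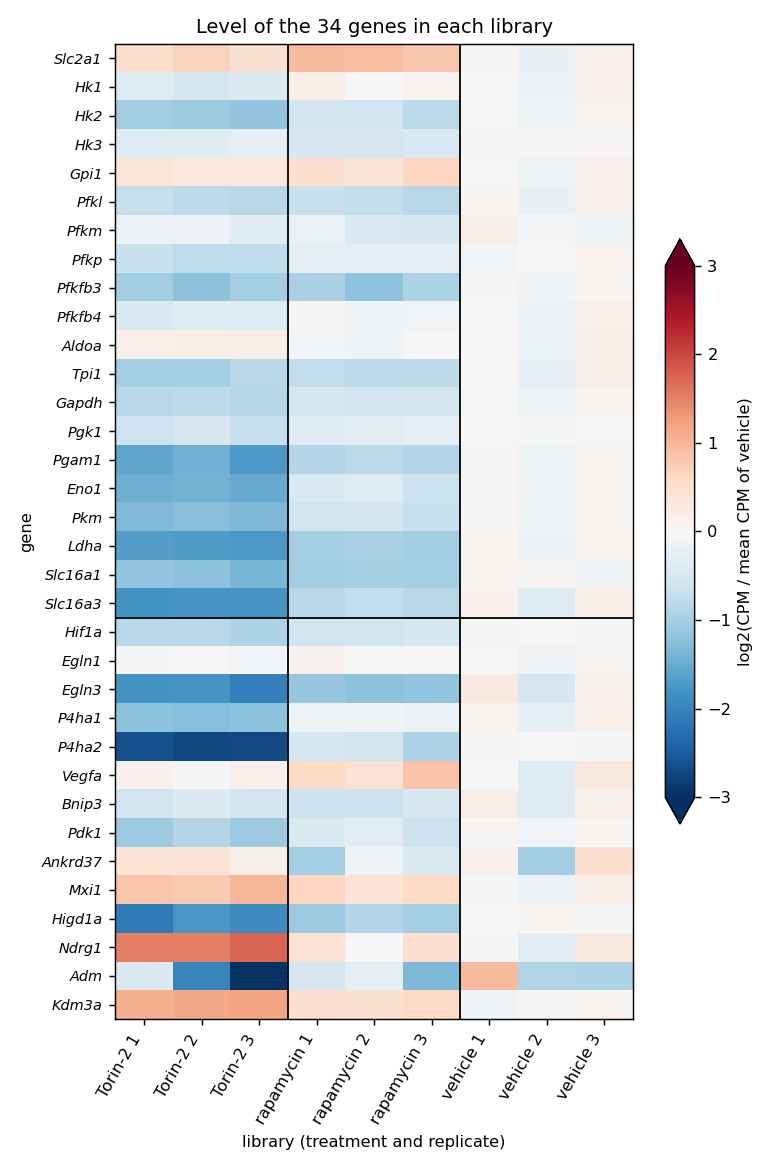
Level of each of the 34 genes (down the page) in each of the 9 libraries (across), as log2 of CPM over the mean CPM of the vehicle libraries, with blue for lower and red for higher values. A black line parts the 20 genes of glycolysis above from the 14 HIF-1 genes below, and most rows are bluest in the 3 Torin-2 libraries, while Slc2a1, Gpi1, Mxi1, Ndrg1 and Kdm3a are red there.

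Summed over the 20 genes of glucose uptake, glycolysis and lactate export, libraries held 6793 ± 84.1 CPM with Torin-2, 8035 ± 28.1 CPM with rapamycin and 10715.5 ± 940 CPM with vehicle (SD, n = 3 each). No sum of 1 group reached into another, and the vehicle libraries spread the most, from 9686 CPM in replicate 2 to 11528.5 CPM in replicate 3. Vehicle replicate 2 was the lowest vehicle library in 26 of the 34 genes, and vehicle replicate 3 was the highest in 24. Without vehicle replicate 2, 23 genes fell and 5 rose with Torin-2, and 23 fell and 5 rose with rapamycin.

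Slc2a1 and Gpi1 rose with both compounds, while most of the 20 genes fell. Slc2a1 (ENSMUSG00000028645), which encodes the glucose transporter GLUT1, stood at 130.1, 144 and 125 CPM in Torin-2 libraries, 174, 172 and 159 CPM in rapamycin libraries and 93.4, 77.3 and 101 CPM in vehicle libraries. The 3 groups did not overlap, and rapamycin libraries were highest. Slc2a1 rose by 0.56 ± 0.09 on the log2 scale with Torin-2 (SE, adjusted p = 0.00019) and by 0.89 ± 0.09 with rapamycin (adjusted p = 1.18e-05), and was lower with Torin-2 than with rapamycin (-0.34 ± 0.09, adjusted p = 0.00862). Gpi1, the isomerase that turns glucose phosphate into fructose phosphate, moved the same way. It averaged 596 ± 8.66 CPM with Torin-2, 679 ± 63.2 CPM with rapamycin and 474 ± 46.4 CPM with vehicle, and rose by 0.33 ± 0.08 with Torin-2 (adjusted p = 0.00329) and by 0.52 ± 0.08 with rapamycin (adjusted p = 0.000248). The difference between the compounds was -0.19, with an adjusted p of 0.0742, or 0.0193 with the replicate number as a block.

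The 3 hexokinases, which trap glucose in the cell by phosphorylating it, fell with Torin-2. Hk2, the isozyme best known as an inducible HIF-1 target, had 41.3, 39.8 and 37.8 CPM in Torin-2 libraries, 57.0, 56.7 and 48.3 CPM in rapamycin libraries and 86.5, 77.4 and 91.8 CPM in vehicle libraries, with no overlap between any groups. Its log2 fold change was -1.11 ± 0.08 with Torin-2 (adjusted p = 2.67e-07) and -0.66 ± 0.08 with rapamycin (adjusted p = 4.67e-05), and Torin-2 libraries were lower than rapamycin libraries (-0.45 ± 0.08, adjusted p = 0.000894). Hk1, the widely expressed isozyme, averaged 79.0 ± 3.63 CPM with Torin-2, 115 ± 6.85 CPM with rapamycin and 108 ± 11.4 CPM with vehicle. Torin-2 lowered it by 0.45 on the log2 scale (adjusted p = 0.000319), whereas the rapamycin difference was 0.10 (95% interval -0.06 to 0.25, adjusted p = 0.333). The difference of Hk1 between the compounds was itself called, at -0.54 ± 0.08 (adjusted p = 0.000144). Hk3, the myeloid isozyme, averaged 470 ± 16.2 CPM with Torin-2, 428 ± 8.72 CPM with rapamycin and 599 ± 23.1 CPM with vehicle, and fell with Torin-2 (-0.35) and with rapamycin (-0.48). Its excess of 0.14 in Torin-2 over rapamycin libraries passed narrowly (adjusted p = 0.0498) and was lost when any library but rapamycin replicate 3 or vehicle replicate 2 was left out (adjusted p up to 0.172).

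Phosphofructokinase sets the pace of glycolysis, and the PFKFB enzymes make or remove its strongest activator. Pfkfb3, an inducible kinase of this family and a HIF-1 target, had 60.2, 52.7 and 61.8 CPM in Torin-2 libraries, 63.4, 53.7 and 64.2 CPM in rapamycin libraries and 128, 115 and 130.1 CPM in vehicle libraries. Every treated library lay below every vehicle library, and the treated groups overlapped each other. Pfkfb3 fell by 1.09 ± 0.08 on the log2 scale with Torin-2 (adjusted p = 3.63e-07) and by 1.04 ± 0.09 with rapamycin (adjusted p = 2.26e-06), and the difference between the compounds was -0.05 (95% interval -0.22 to 0.12, adjusted p = 0.644). The liver-type subunit Pfkl showed similar values under both compounds, at 63.1 ± 2.96 CPM with Torin-2, 64.4 ± 3.86 CPM with rapamycin and 107 ± 13.4 CPM with vehicle. It fell by 0.76 with Torin-2 (adjusted p = 9.02e-06) and by 0.73 with rapamycin (adjusted p = 3.39e-05), with a difference between compounds of -0.03 (95% interval -0.20 to 0.14, adjusted p = 0.799).

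The platelet-type subunit Pfkp and Pfkfb4 separated the compounds. Pfkp averaged 52.5 ± 2.00 CPM with Torin-2, 71.9 ± 0.981 CPM with rapamycin and 87.2 ± 5.82 CPM with vehicle, a fall of 0.73 with Torin-2 and of 0.28 with rapamycin on the log2 scale (adjusted p = 6.13e-07 and 0.00234), and the compounds differed by -0.46 (adjusted p = 7.92e-05). Pfkfb4 averaged 36.1 ± 1.35 CPM with Torin-2, 46.2 ± 2.14 CPM with rapamycin and 47.7 ± 5.56 CPM with vehicle. It fell with Torin-2 (-0.40 ± 0.08, adjusted p = 0.00107), had a log2 value of -0.05 with rapamycin (adjusted p = 0.645), and differed between compounds by -0.35 (adjusted p = 0.00432). The muscle-type subunit Pfkm had the lowest mean of the 3 subunits per length in each group. With Torin-2 it was close to Pfkp (3.81 ± 0.263 against 3.91 ± 0.149 CPM per kb of exon) and above it in replicate 2. Pfkm stood at 12.7, 11.6 and 15.0 mean CPM in Torin-2, rapamycin and vehicle libraries. It fell with rapamycin (-0.38, adjusted p = 0.0174), a call lost without rapamycin replicate 2, rapamycin replicate 3 or vehicle replicate 1 (adjusted p = 0.0604, 0.0614 and 0.0888). With Torin-2 the log2 value of Pfkm was -0.24 (adjusted p = 0.0865, or 0.0388 with the replicate block, and 0.0397 without vehicle replicate 3).

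**Figure D2:**
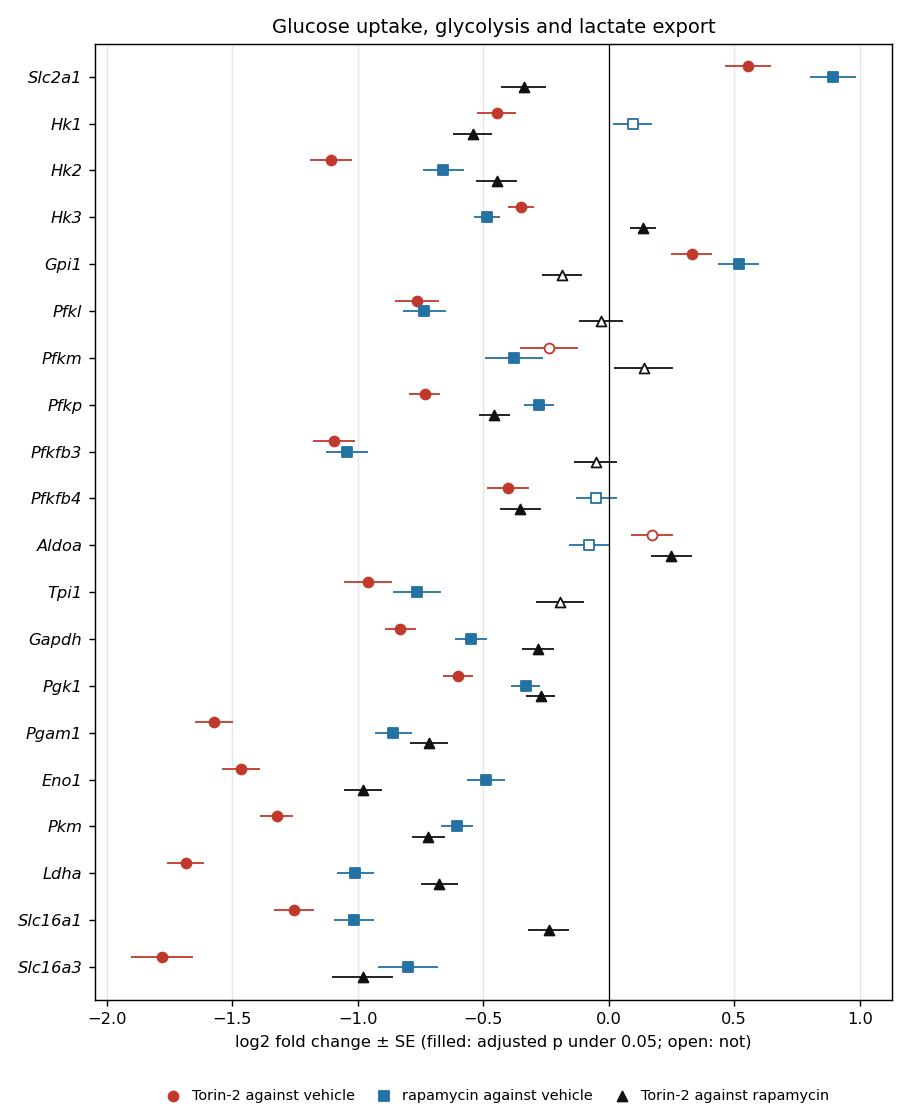
log2 fold change ± SE (x axis) of the 20 genes of glucose uptake, glycolysis and lactate export (y axis, in pathway order) for each compound against vehicle and for Torin-2 against rapamycin, filled where the adjusted p was under 0.05. Slc2a1 and Gpi1 lie right of 0 for both compounds against vehicle, and the lowest values of Torin-2 against vehicle belong to Slc16a3, Ldha, Pgam1 and Eno1.

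Of 7 enzymes from aldolase to pyruvate kinase, 6 fell with each compound. The exception was Aldoa, the aldolase that splits the sugar, and the most abundant of the 34 genes per length in every group. Its main row (ENSMUSG00000030695, chromosome 7 from 126795234 to 126800751) stood at 2165, 2219 and 2203 CPM in Torin-2 libraries, 1837, 1787 and 1918 CPM in rapamycin libraries and 1969, 1688 and 2189.9 CPM in vehicle libraries. Vehicle libraries spanned the range of rapamycin libraries and reached into that of Torin-2. The log2 difference from vehicle was 0.17 with Torin-2 (adjusted p = 0.0867, 0.0343 with the replicate block and 0.00875 without vehicle replicate 3) and -0.08 with rapamycin (adjusted p = 0.463). Torin-2 libraries exceeded rapamycin libraries by 0.25 ± 0.08 (adjusted p = 0.0264), a call lost without rapamycin replicate 1 or 2 or any 1 Torin-2 library (adjusted p up to 0.0840).

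The steps that follow all fell, and with Torin-2 the last 3 fell most. With Torin-2 the log2 fold change was -0.96 for the triose isomerase Tpi1, -0.83 for Gapdh, -0.60 for the phosphoglycerate kinase Pgk1, -1.57 for the phosphoglycerate mutase Pgam1, -1.47 for the enolase Eno1 and -1.32 for the pyruvate kinase Pkm. With rapamycin the same genes gave -0.76, -0.55, -0.33, -0.86, -0.49 and -0.60. All 12 values were called, with adjusted p from 7.33e-09 (Pgam1 with Torin-2) to 0.000587 (Pgk1 with rapamycin). Gapdh, often used as an invariant reference in expression assays, stood at 926 ± 23.5 CPM with Torin-2, 1125 ± 18.9 CPM with rapamycin and 1645 ± 128 CPM with vehicle, and no libraries of different groups overlapped.

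Eno1 and Pkm showed how far the compounds differed at these steps. Eno1 had 302, 313 and 290.2 CPM in Torin-2 libraries, 610, 641 and 532 CPM in rapamycin libraries and 856, 770 and 873 CPM in vehicle libraries. Pkm had 767, 791 and 752 CPM with Torin-2, 1273, 1320.3 and 1207 CPM with rapamycin and 1967, 1775 and 2036 CPM with vehicle. In both genes the 3 groups were apart, with Torin-2 lowest and vehicle highest. Torin-2 libraries were below rapamycin libraries by 0.98 ± 0.08 on the log2 scale for Eno1 (adjusted p = 1.37e-06) and by 0.72 ± 0.06 for Pkm (adjusted p = 3.9e-06). Pgam1 differed by -0.72, Gapdh by -0.28 and Pgk1 by -0.27, all called. Tpi1 differed by -0.19, with an adjusted p of 0.115, or 0.0327 with the replicate block. Near-identical sequence in other genes' transcripts covers 53.9% of Pgk1, 36.2% of Pgam1, 26.0% of Eno1, 25.8% of Pkm and 25.1% of Gapdh (as 50-base words), so these counts are uncertain where reads could be split. The spliced forms of Pkm cannot be told apart in gene counts.

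Slc16a3 and Ldha, of lactate export and lactate production, fell furthest among the 20 genes with Torin-2. Ldha (ENSMUSG00000063229), the lactate dehydrogenase subunit that favours lactate formation, had 418, 407 and 398 CPM in Torin-2 libraries, 647, 673 and 633 CPM in rapamycin libraries and 1371, 1153 and 1409 CPM in vehicle libraries. The groups did not overlap, and the lowest vehicle library stood above the highest rapamycin library. Ldha fell by 1.68 ± 0.07 on the log2 scale with Torin-2 (adjusted p = 4.14e-09) and by 1.01 ± 0.07 with rapamycin (adjusted p = 1.01e-06), and the compounds differed by -0.68 ± 0.07 (adjusted p = 1.59e-05).

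Slc16a3 (ENSMUSG00000025161) encodes MCT4, the lactate exporter of strongly glycolytic cells. It stood at 43.4, 43.9 and 43.7 CPM in Torin-2 libraries, 84.4, 90.0 and 84.0 CPM in rapamycin libraries and 164, 115 and 171 CPM in vehicle libraries. Torin-2 libraries lay within 1 CPM of each other, and vehicle replicate 2 was the vehicle library nearest to rapamycin. The log2 fold change was -1.78 ± 0.12 with Torin-2 (adjusted p = 1.29e-07) and -0.80 ± 0.12 with rapamycin (adjusted p = 0.000165), and the difference between compounds was -0.98 ± 0.12 (adjusted p = 4.46e-05). Slc16a1, which encodes the more widely expressed MCT1, averaged 18.7 ± 1.32 CPM with Torin-2, 22.1 ± 0.459 CPM with rapamycin and 44.6 ± 3.18 CPM with vehicle. It fell by 1.25 with Torin-2 and by 1.02 with rapamycin on the log2 scale (adjusted p = 6.59e-08 and 1.6e-06). Its difference between compounds, -0.24 (adjusted p = 0.0298), was lost without rapamycin replicate 2 or 3 or Torin-2 replicate 3, and with totals alone (adjusted p = 0.140).

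**Figure D3:**
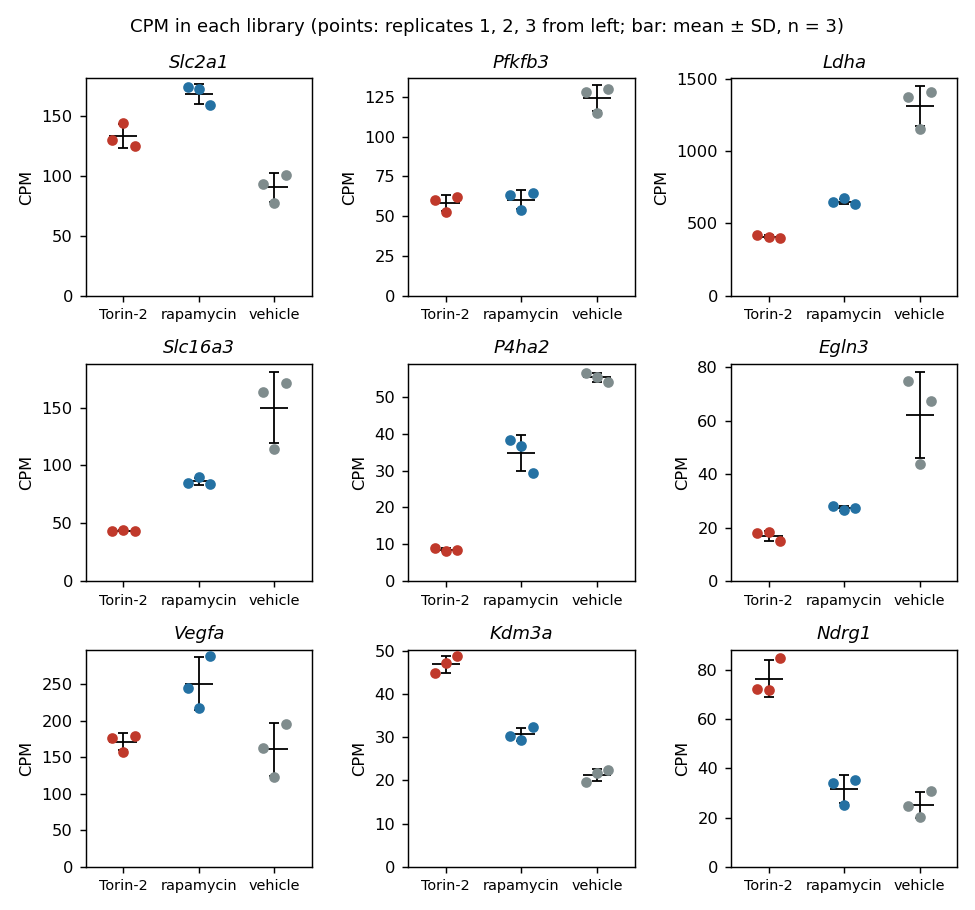
CPM (y axis, starting at 0) of 9 of the genes in each library, by treatment (x axis), with points for replicates 1, 2 and 3 from left to right and bars for the mean ± SD (n = 3). Pfkfb3 lies at the same height under Torin-2 and rapamycin, Ldha, Slc16a3 and P4ha2 step upward from Torin-2 through rapamycin to vehicle, Vegfa peaks under rapamycin, and Kdm3a and Ndrg1 are highest under Torin-2.

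Of the 14 genes of the HIF-1 pathway outside glycolysis, 7 fell and 3 rose with Torin-2, 6 fell and 3 rose with rapamycin, and 7 were lower and 3 higher in Torin-2 than in rapamycin libraries. Of all tested genes 32.9% fell and 32.5% rose with Torin-2, 26.2% fell and 24.6% rose with rapamycin, and 24.1% were lower and 24.2% higher between compounds. Hif1a, the regulated subunit itself, had 112, 111 and 104 CPM in Torin-2 libraries, 131, 130.4 and 137 CPM in rapamycin libraries and 202, 201 and 193 CPM in vehicle libraries. The 3 groups were apart, and replicates within a group lay close together. Hif1a RNA fell by 0.87 ± 0.05 on the log2 scale with Torin-2 (adjusted p = 4.16e-08) and by 0.58 ± 0.05 with rapamycin (adjusted p = 4.2e-06), and the compounds differed by -0.29 ± 0.05 (adjusted p = 0.000704).

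The prolyl hydroxylases that mark HIF alpha subunits parted ways. Egln3, itself a HIF-1 target, had 18.0, 18.3 and 14.9 CPM in Torin-2 libraries, 28.3, 26.5 and 27.3 CPM in rapamycin libraries and 74.8, 44.0 and 67.4 CPM in vehicle libraries. All groups were apart although vehicle replicate 2 was well below the other vehicle libraries. Egln3 fell by 1.87 ± 0.16 with Torin-2 (adjusted p = 1.05e-06) and by 1.18 ± 0.16 with rapamycin (adjusted p = 8.57e-05), with -0.68 ± 0.17 between compounds (adjusted p = 0.00532). Egln1, the main oxygen sensor of this family in most cells, averaged 36.7 ± 1.39 CPM with Torin-2, 38.6 ± 2.04 CPM with rapamycin and 37.5 ± 2.56 CPM with vehicle. Its log2 differences were -0.03 with Torin-2 (95% interval -0.17 to 0.11), 0.04 with rapamycin (-0.10 to 0.18) and -0.07 between compounds (-0.21 to 0.07), and none was called (adjusted p = 0.698, 0.666 and 0.423).

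The collagen prolyl hydroxylases, HIF-1 targets that modify procollagen in the endoplasmic reticulum, held the largest fall of the 34 genes and the clearest difference between compounds. P4ha2 (ENSMUSG00000018906) had 8.93, 8.29 and 8.42 CPM in Torin-2 libraries, 38.4, 36.5 and 29.3 CPM in rapamycin libraries and 56.4, 55.2 and 54.0 CPM in vehicle libraries. Every group was far from the others, and replicate 3 was the lowest rapamycin library. P4ha2 fell by 2.69 ± 0.10 on the log2 scale with Torin-2 (adjusted p = 1.3e-09) and by 0.67 ± 0.09 with rapamycin (adjusted p = 8.58e-05), and Torin-2 libraries were lower than rapamycin libraries (-2.02 ± 0.10, adjusted p = 5.86e-08). P4ha1 had 85.3, 83.8 and 85.5 CPM with Torin-2, 182, 183 and 179 CPM with rapamycin and 217, 164 and 223 CPM with vehicle. Rapamycin libraries thus lay inside the vehicle range, and Torin-2 libraries below both. It fell with Torin-2 (-1.25 ± 0.10, adjusted p = 3.25e-07) and was lower with Torin-2 than with rapamycin (-1.09 ± 0.10, adjusted p = 3.19e-06). The rapamycin difference of P4ha1 was -0.15 (95% interval -0.34 to 0.03, adjusted p = 0.193), and it was called without vehicle replicate 2 (-0.28, adjusted p = 0.00106) and with totals alone (-0.25, adjusted p = 0.0293). Summed fibroblast markers stood at 7.17, 6.75 and 2.38 CPM in Torin-2 libraries, 78.2, 53.9 and 12.3 CPM in rapamycin libraries and 37.8, 27.6 and 8.95 CPM in vehicle libraries. They were lowest with Torin-2, as P4ha1 and P4ha2 were. In rapamycin and vehicle libraries they stood in the same order of replicates as P4ha2. In Torin-2 libraries their order differed from that of P4ha2, and in no group did it match that of P4ha1. On average their sum was highest with rapamycin, whereas P4ha1 and P4ha2 were highest with vehicle. Dcn and Lum, markers of this list under 1 CPM throughout, had their highest values in Torin-2 libraries. The part of fibroblast markers in these values was not tested.

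Of the remaining 9 HIF-1 targets, 3 were called higher, 3 lower and 3 not called in each of the 3 comparisons. These shares of 33.3% lie near those of all tested genes with Torin-2 against vehicle, where 32.5% rose and 32.9% fell. Higd1a, a mitochondrial inner membrane protein induced by hypoxia, fell most among them, at 5.83, 7.49 and 6.78 CPM in Torin-2 libraries, 11.8, 13.8 and 12.3 CPM in rapamycin libraries and 24.7, 26.4 and 24.3 CPM in vehicle libraries. The groups did not overlap. Its log2 fold change was -1.91 ± 0.11 with Torin-2 (adjusted p = 2.6e-08), -0.99 ± 0.10 with rapamycin (adjusted p = 1.21e-05) and -0.92 ± 0.11 between compounds (adjusted p = 3.54e-05). Pdk1, the kinase that keeps pyruvate out of the mitochondrial pyruvate dehydrogenase, averaged 50.5 ± 4.22 CPM with Torin-2, 74.1 ± 8.27 CPM with rapamycin and 102 ± 4.27 CPM with vehicle, and fell by 1.01 and 0.46 on the log2 scale with Torin-2 and rapamycin (adjusted p = 7.47e-07 and 0.000816). Bnip3, a mitophagy receptor, averaged 45.8 ± 3.11 CPM with Torin-2, 43.6 ± 2.54 CPM with rapamycin and 65.5 ± 13.7 CPM with vehicle. It fell by 0.52 with Torin-2 and by 0.59 with rapamycin (adjusted p = 0.0033 and 0.00239), and the compounds differed by 0.07 (95% interval -0.18 to 0.32, adjusted p = 0.693). Shared 50-base words cover 47.2% of Bnip3 and 24.4% of Higd1a, which makes their counts uncertain in the same way.

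Kdm3a, Mxi1 and Ndrg1 rose with Torin-2. Kdm3a (ENSMUSG00000053470), a histone demethylase, had 44.9, 47.1 and 48.7 CPM in Torin-2 libraries, 30.3, 29.4 and 32.3 CPM in rapamycin libraries and 19.7, 21.6 and 22.5 CPM in vehicle libraries. The 3 groups were apart, in the reverse order of Ldha. Kdm3a rose by 1.14 ± 0.07 on the log2 scale with Torin-2 (adjusted p = 7.26e-08) and by 0.53 ± 0.07 with rapamycin (adjusted p = 0.000117), and was higher with Torin-2 than with rapamycin (0.61 ± 0.07, adjusted p = 2.93e-05). Mxi1, an antagonist of Myc, averaged 70.3 ± 5.63 CPM with Torin-2, 56.2 ± 4.59 CPM with rapamycin and 38.3 ± 4.92 CPM with vehicle, a rise of 0.88 with Torin-2 and of 0.55 with rapamycin (adjusted p = 7.39e-06 and 0.00064). The compounds differed in Mxi1 by 0.33 (adjusted p = 0.0147), a call lost without rapamycin replicate 2 or Torin-2 replicate 3 (adjusted p = 0.0661 and 0.0695).

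Ndrg1, a stress-responsive gene that is also induced by hypoxia, was higher with Torin-2 than with rapamycin. It had 72.0, 71.9 and 84.9 CPM in Torin-2 libraries, 33.98, 25.0 and 35.4 CPM in rapamycin libraries and 24.6, 20.2 and 30.8 CPM in vehicle libraries. Torin-2 libraries stood above all others, and rapamycin and vehicle libraries overlapped. Ndrg1 rose by 1.60 ± 0.15 with Torin-2 (adjusted p = 2.1e-06) and was higher with Torin-2 than with rapamycin by 1.28 ± 0.15 (adjusted p = 3.09e-05). With rapamycin the log2 value was 0.32 (adjusted p = 0.111), or an adjusted p of 0.00601 with the replicate block, 0.0227 without rapamycin replicate 2 and 0.0170 without vehicle replicate 3.

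Vegfa, the angiogenic growth factor, was the only one of the 34 genes called higher with rapamycin against vehicle and not called with Torin-2 against vehicle. It had 177, 158 and 179.6 CPM in Torin-2 libraries, 245, 218 and 289 CPM in rapamycin libraries and 163, 123 and 196 CPM in vehicle libraries. Rapamycin libraries lay above all others, and Torin-2 libraries fell inside the wide vehicle range. Vegfa rose by 0.64 ± 0.14 on the log2 scale with rapamycin (adjusted p = 0.00297), gave 0.09 with Torin-2 (95% interval -0.19 to 0.37, adjusted p = 0.593), and was lower with Torin-2 than with rapamycin (-0.55 ± 0.14, adjusted p = 0.00781). Ankrd37 and Adm were too low to read closely. Ankrd37 held 16 to 62 counts, at 2.66 ± 0.240 CPM with Torin-2, 1.49 ± 0.435 CPM with rapamycin and 2.09 ± 0.995 CPM with vehicle, and was not called (log2 0.34 with Torin-2, -0.47 with rapamycin and 0.81 between compounds). Without vehicle replicate 2 its values for rapamycin against vehicle and for the compounds were called (adjusted p = 0.0446 and 0.0258). Adm, which encodes adrenomedullin, held 2 to 29 counts, with 0.241 ± 0.212, 0.407 ± 0.140 and 0.639 ± 0.522 CPM in Torin-2, rapamycin and vehicle libraries. Its log2 value of -1.47 with Torin-2 had an adjusted p of 0.0801, or 0.0244 with the replicate block, 0.0251 without Torin-2 replicate 1 and 0.0440 without vehicle replicate 3.

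**Figure D4:**
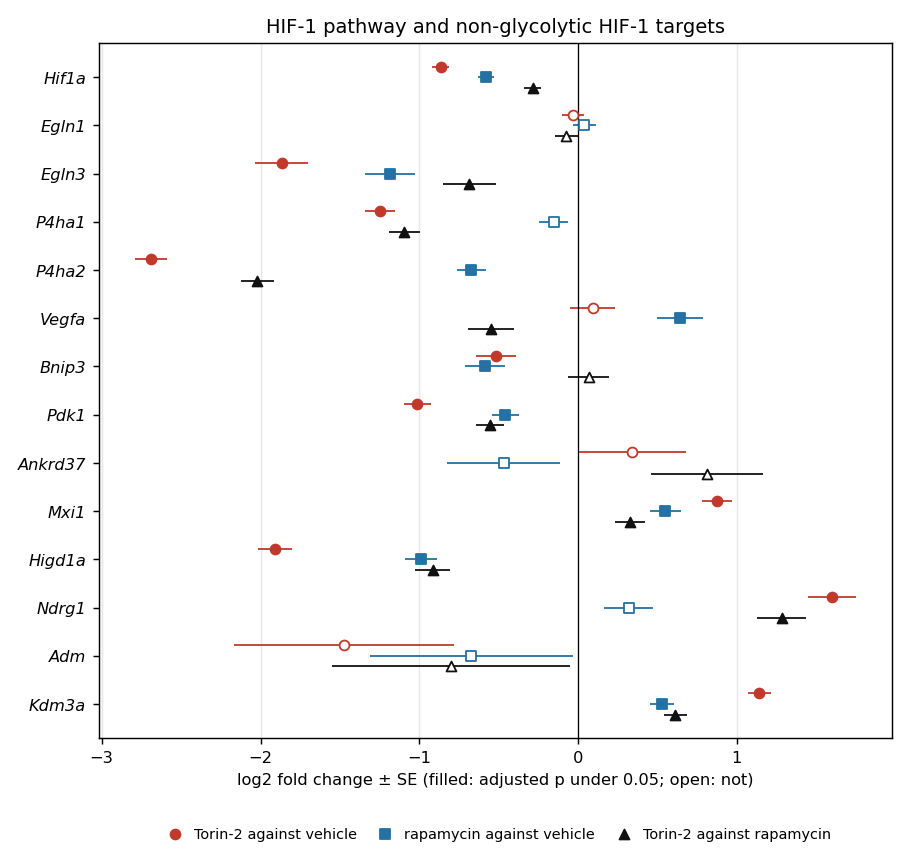
log2 fold change ± SE (x axis) of the 14 HIF-1 genes outside glycolysis (y axis) for the 3 comparisons, filled where the adjusted p was under 0.05. P4ha2, Higd1a and Egln3 lie farthest left for Torin-2 against vehicle, Mxi1, Ndrg1 and Kdm3a lie right of 0, and Egln1 lies near 0 in all 3.

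Because isozymes of a step moved by different amounts, their shares of the family also changed, measured as CPM per kb of exon. Hk3 held 88.9 ± 0.621% of hexokinase with Torin-2, 83.8 ± 0.946% with rapamycin and 85.8 ± 0.747% with vehicle, while Hk2 held 4.63 ± 0.334%, 6.52 ± 0.657% and 7.53 ± 0.321% in Torin-2, rapamycin and vehicle libraries. Pfkfb3 made up 50.9 ± 2.70% of the PFKFB pair with Torin-2 and 45.7 ± 1.97% with rapamycin, against 62.7 ± 1.43% with vehicle. Pfkp held 22.8 ± 0.496% of the phosphofructokinase subunits with Torin-2, 29.1 ± 1.55% with rapamycin and 24.2 ± 2.08% with vehicle, and Pfkl was the largest share throughout.

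Both hydroxylase pairs shifted as well. Egln3 held 38.5 ± 1.90% of the pair with Egln1 in Torin-2 libraries and 48.9 ± 0.862% in rapamycin libraries, against 68.5 ± 4.85% in vehicle libraries. P4ha2 held 6.23 ± 0.200% of the pair with P4ha1 with Torin-2 and 11.2 ± 1.29% with rapamycin, against 15.5 ± 2.34% with vehicle. In both pairs no library of 1 group reached the range of another. Slc16a3 held 66.0 ± 1.65% of the lactate transporter pair with Torin-2, 76.5 ± 0.401% with rapamycin and 73.2 ± 5.21% with vehicle, where the vehicle range of 67.5 to 77.7% covered the rapamycin values and part of the Torin-2 values. These shares are descriptions with no test, and they depend on the exon length assumed for each gene.

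**Figure D5:**
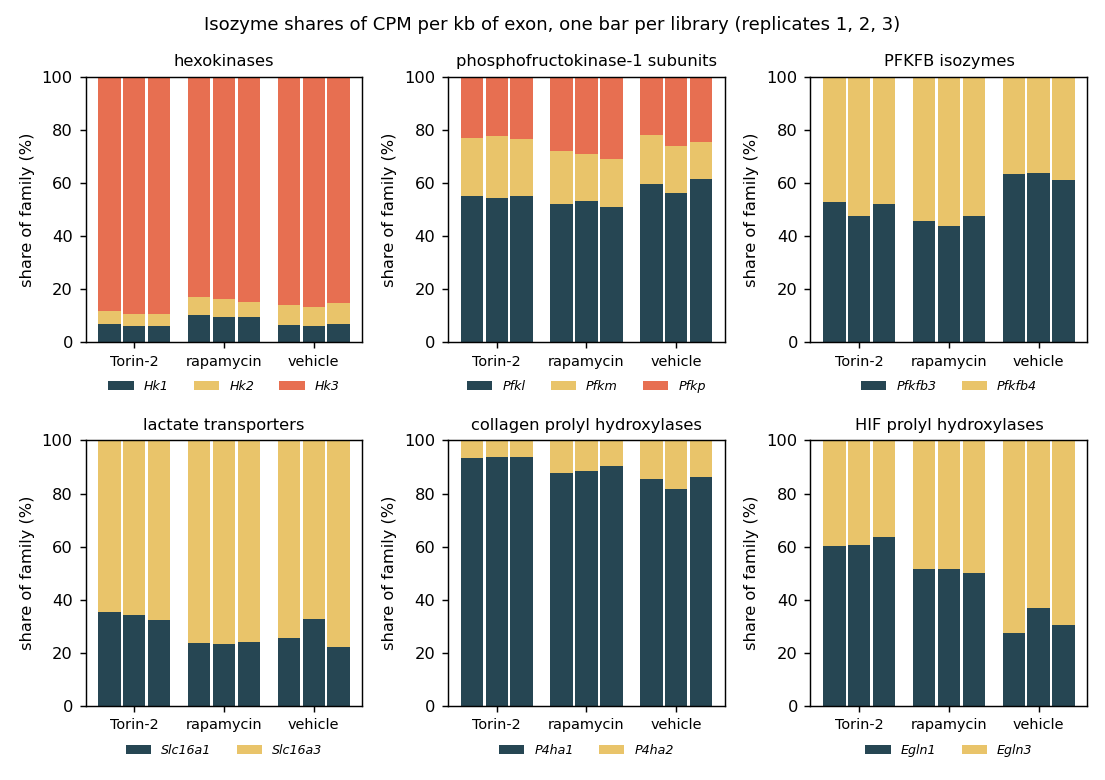
Share of each isozyme in its family (y axis, percent of CPM per kb of exon) in each library, 1 stacked bar per library and 3 bars per treatment (x axis). The Egln3 share is smallest and the P4ha2 share is smallest in the Torin-2 bars, at 38.5% and 6.23% on average, and both are largest in the vehicle bars.

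Other genes of the same pathways were described from 4 lists holding 89 genes, of which 68 were tested. With Torin-2 against vehicle 39 of them (57.4%) fell and 16 (23.5%) rose, while 32.9% of all tested genes fell and 32.5% rose. With rapamycin against vehicle 31 (45.6%) fell and 10 (14.7%) rose, against 26.2% and 24.6% of all tested genes. In Torin-2 relative to rapamycin libraries 28 (41.2%) were lower and 15 (22.1%) higher, against 24.1% and 24.2%. Their median log2 values were -0.54 with Torin-2, -0.22 with rapamycin and -0.17 between compounds. The same shares of all tested genes are set in parentheses beside the counts of each list below, with falls before rises.

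Among 19 tested genes of glucose entry and glycolysis that are not among the 34, 11 fell and 2 rose with Torin-2 (32.9% and 32.5% of tested genes), and 8 fell and 2 rose with rapamycin (26.2% and 24.6% of tested genes). Slc2a6, a facilitative sugar transporter of the lysosomal membrane, averaged 2.71 ± 0.514 CPM with Torin-2 and 2.56 ± 0.348 CPM with rapamycin, against 17.9 ± 1.52 CPM with vehicle, and its log2 value fell by 2.70 with Torin-2 and fell by 2.81 with rapamycin (adjusted p = 2.7e-08 and 1.37e-07). Slc2a9, a urate and sugar transporter, fell by 0.56 with Torin-2 and fell by 0.87 with rapamycin (adjusted p = 0.000135 and 1.22e-05), Slc2a3 fell by 0.56 with rapamycin (adjusted p = 0.00228) and gave -0.27 with Torin-2 (adjusted p = 0.0648), and Slc2a8 fell by 0.20 with Torin-2 (adjusted p = 0.0226) and gave -0.03 with rapamycin (adjusted p = 0.705). Slc16a6, a further monocarboxylate transporter, averaged 20.5 ± 0.207 CPM with Torin-2, 80.1 ± 4.14 CPM with rapamycin and 100.7 ± 1.94 CPM with vehicle, and differed between the compounds by -1.97 (adjusted p = 4.79e-09). Bsg, the chaperone that MCT1 and MCT4 need to reach the cell surface, also differed between them, at 182 ± 5.14 CPM with Torin-2 and 311 ± 6.64 CPM with rapamycin (log2 -0.77, adjusted p = 1.19e-06). Tigar, a phosphatase that lowers the activator of phosphofructokinase, fell by 1.16 with Torin-2 (adjusted p = 1.25e-06). The 2 rises with each compound were Pgm2l1 and Eno2. Pgm2l1, a sugar phosphate synthase, averaged 134 ± 3.66 CPM with Torin-2, 103 ± 9.04 CPM with rapamycin and 38.6 ± 3.03 CPM with vehicle, and Eno2, the neuronal enolase, 10.1 ± 0.891, 6.80 ± 1.24 and 3.75 ± 1.05 CPM in the same order.

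Of 13 genes of pyruvate entry into mitochondria, 8 fell and 4 rose with Torin-2 (32.9% and 32.5% of tested genes), and 7 fell and 2 rose with rapamycin (26.2% and 24.6% of tested genes). Pdhb, a subunit of pyruvate dehydrogenase, fell by 1.23 with Torin-2 and Pdk3, a kinase that inhibits that enzyme, fell by 1.48 (adjusted p = 1.46e-08 and 1.47e-07). Mpc1, of the pyruvate carrier, fell by 0.84 with rapamycin and Pdhx by 0.84 (adjusted p = 4.78e-06 and 1.76e-05). The phosphatase regulator Pdpr rose by 1.03 with Torin-2 and by 0.81 with rapamycin (adjusted p = 4.07e-07 and 1.11e-05), and the kinase Pdk2 rose by 0.68 and 0.58 (adjusted p = 0.000188 and 0.00113). A further kinase of the list, Pdk4, was not called with either compound (log2 -0.12 and 0.40, adjusted p = 0.89 and 0.664).

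Of 11 tested regulators of HIF, 5 fell and 4 rose with Torin-2 (32.9% and 32.5% of tested genes), and 4 fell and 2 rose with rapamycin (26.2% and 24.6% of tested genes), and the median log2 value was -0.01 with Torin-2 and 0.03 with rapamycin. Cul2, Elob and Rbx1, parts of the ubiquitin ligase that removes hydroxylated HIF alpha, fell by 0.79, 0.75 and 0.63 with Torin-2 (adjusted p = 5.27e-07, 9.47e-07 and 2.18e-05). Vhl, a further part of that ligase, was not called (log2 -0.01 with Torin-2 and -0.15 with rapamycin, adjusted p = 0.94 and 0.196). Arnt, the partner subunit, rose by 0.53 with Torin-2 and by 0.40 with rapamycin (adjusted p = 5.43e-06 and 0.00012), the opposite direction to Hif1a. Hif1an, the asparaginyl hydroxylase that blocks HIF's coactivator contact, rose by 0.48 with Torin-2 (adjusted p = 0.00011). The largest rise of the list belonged to Cited2, a HIF target that competes for the same coactivator, at 185 ± 8.01 CPM with Torin-2, 72.4 ± 8.93 CPM with rapamycin and 11.1 ± 1.20 CPM with vehicle.

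Of 25 further HIF targets tested, 15 fell and 6 rose with Torin-2 (32.9% and 32.5% of tested genes), and 12 fell and 4 rose with rapamycin (26.2% and 24.6% of tested genes). Tfrc, the transferrin receptor, fell by 2.86 with Torin-2 and by 1.87 with rapamycin (adjusted p = 1.84e-06 and 8.49e-05). Fam162a, a hypoxia-induced mitochondrial protein, fell by 1.03 with rapamycin and the cytokine Mif by 0.66 (adjusted p = 3.28e-05 and 3.57e-05). The glycogen phosphorylase Pygl rose by 1.16 with Torin-2 and by 0.60 with rapamycin (adjusted p = 4.04e-08 and 2.64e-05). Wsb1, a ubiquitin ligase component, had 42.4 ± 2.51 CPM with Torin-2, 15.7 ± 1.58 CPM with rapamycin and 10.9 ± 0.752 CPM with vehicle, and was higher with Torin-2 than with rapamycin by 1.43 (adjusted p = 3.41e-07).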

How the data were processed

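The authors deposited raw counts per gene for 9 libraries, made with the Nugen Universal Plus mRNAseq kit and read as paired ends of 100 bp, per the labels. The submitters' processing notes name the builds mm10 and GRCm38.p6 with bcl2fastq, FastQC and STAR 2.5.2a. How reads were counted and with which strand setting is not given in the sources used here, and genes that overlap may therefore share reads. Such overlaps touch Slc2a1, Gpi1, Pfkm, Pfkp, Aldoa, Tpi1, Gapdh, Pkm, Hif1a, Bnip3 and Ankrd37. Gene positions and exon lengths came from GENCODE M21 (GRCm38), which holds 53237 of the 53342 identifiers.

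Counts were fitted in R 4.3.3 with edgeR 4.0.16 (filterByExpr by group, TMM, glmQLFit and glmQLFTest, 2-sided). All 9 libraries entered 1 fit of 3 groups without covariates, and p-values were adjusted by Benjamini-Hochberg over all 12511 tested genes, at a threshold of 0.05. The SE was taken as the log2 fold change over the square root of F, and a 95% interval is 1.96 SE either side. These intervals are approximate and narrower than the quasi-likelihood test implies. For Pfkm with Torin-2 the interval was -0.46 to -0.01, while the unadjusted p of that test was 0.0602. The code was tried on simulated counts in which few genes changed, in 1 group, and no replicate effect was built in. These settings differ from the data, so the trial cannot speak to error rates here. Totals of 16116666 to 24044329 counts per library leave the low-count genes measured least well. No spike-in was used here, so changes are relative to other genes.

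Torin-2 and rapamycin were each set against the same 3 vehicle libraries, so these comparisons share them. Same-numbered libraries deviated together from their group means, with correlations of 0.168 to 0.5 over 9 pairs against -0.358 to 0.162 over 18 others. Deviations from a mean of 3 libraries cancel out within a group, so the low values of the others follow in part and are no separate support. The highest values, 0.364 to 0.5, were between replicate 3 libraries. The numbers were taken to pair the libraries, and the blocked value is given where it changes a call. Alternatives were the replicate block, DESeq2 size factors, totals alone, DESeq2 1.42.0, no filter on low counts, the 2 compared groups alone, leaving out each library, and, added after seeing the data, leaving out replicate 3 of every group. Promoter windows came from RefSeq (GRCm38.p6), and copies were sought as 50-base words shared with other genes' transcripts, for the 34 genes alone.

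The genes, lists, tests and alternatives were chosen with earlier results of these data known. All 34 genes are named. Of each further pathway list the text draws on up to 3 genes that rose and 3 that fell most in each comparison, among those called with a mean of at least 5 CPM. Among these, some that the rule takes are not reported here.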

Additional observations from a re-analysis of the deposited data

How the results depend on the processing

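Over 16 alternatives, the 34 genes in 3 comparisons gave 1620 values, of which 1546 kept their direction and side of the threshold, 27 lost a call, 32 gained one and 15 changed sign. Of the 102 gene comparisons, 22 changed under at least 1 alternative. Every sign change was of a log2 value that was not called. With 1 library left out, the Torin-2 values against vehicle ranged from -0.0882 (without vehicle replicate 2) to 0.00762 (without vehicle replicate 3) for Egln1 and from -0.0693 to 0.256 for Vegfa, without the same libraries. The rapamycin values ranged likewise from -0.128 to 0.0377 for Pfkfb4, from -0.170 to 0.0141 for Aldoa and from -0.0119 to 0.0825 for Egln1. Between compounds, Pfkl ranged from -0.0777 to 0.00357 (without rapamycin replicates 3 and 1) and Pfkfb3 from -0.134 to 0.00988 (without rapamycin replicate 2 and Torin-2 replicate 2). Totals alone gave -0.0543 for Egln1 with rapamycin, and between compounds 0.0434 for Pfkl, 0.0227 for Pfkfb3 and 0.000288 for Egln1. Without replicate 3 of every group, Egln1 with Torin-2 gave 0.0360 and Pfkfb4 with rapamycin 0.0477. The cause was not tested.

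With 1 library left out, 28 to 31 of the 34 genes were called with Torin-2, 25 to 28 with rapamycin and 21 to 28 between compounds, where 2 to 6 were higher. With the replicate block 6 rose and 25 fell with Torin-2, 6 rose and 21 fell with rapamycin, and 5 were higher and 22 lower between compounds. Beyond the blocked values in the report, the block changed no other call of the 34 genes. With the 2 compared groups alone, Gpi1, Tpi1 and Ankrd37 gained a call between compounds (edgeR, adjusted p = 0.0218, 0.0167 and 0.0321). Hk3 lost its call there (adjusted p = 0.0828). Depth limits Adm and Ankrd37, with 2 to 29 and 16 to 62 counts.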

Other observations

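The second row under the symbol Aldoa (ENSMUSG00000114515, chromosome 7 from 126800790 to 126809108) lies directly next to the main row and held 2 to 20 counts per library. Its level was 0.807 ± 0.110 CPM in Torin-2 libraries, 0.237 ± 0.102 CPM in rapamycin libraries and 0.373 ± 0.225 CPM in vehicle libraries (SD, n = 3 each). It was higher with Torin-2 than with vehicle by 1.11 on the log2 scale (edgeR, adjusted p = 0.0435) and than with rapamycin by 1.70 (adjusted p = 0.012), and it differed between rapamycin and vehicle by -0.59 (adjusted p = 0.378). Against vehicle the value no longer passed when replicate 1 of vehicle (adjusted p = 0.141), replicate 2 of vehicle (log2 0.81, adjusted p = 0.161), replicate 2 of rapamycin (adjusted p = 0.0519) or any 1 Torin-2 library (adjusted p = 0.0641 to 0.113) was left out, with no filter on low counts (adjusted p = 0.0744) and with DESeq2 (log2 1.12, adjusted p = 0.137). Without vehicle replicate 3 the value was 1.67 (adjusted p = 0.01).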
